A study of Homo sapiens with 2 samples.

Results

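The circadian clock genes described here are the 10 genes BHLHE40, BHLHE41, PER1, PER2, PER3, CRY1, CRY2, CLOCK, NR1D2 and DBP, taken by symbol from the 60619 genes of the deposited tables. Their transcripts were read by RNA sequencing from HBEC-3KT, an immortalized human bronchial epithelial line that grows as basal-like cells. One culture had received a lentiviral vector that encodes human CBS (pLenti6-hCBS; CBS cells below), and the other the empty pLenti6 vector (vector cells). Both saw virus for 4 to 8 hours and were then put under blasticidin at 10 µg/mL, with 4 to 5 days of growth on gelatin in flat culture, so the viral backbone and the drug were common to both. CBS encodes cystathionine beta-synthase, an enzyme that joins homocysteine to serine, and the study asked how its expression bears on Polycomb repressive complex 2. Each group held 1 library, so the differences below have no replicates behind them and the conditions could not be tested against each other. The hour of harvest, and whether the cultures had been synchronized, are not given in the sources used here.

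As background, the mammalian clock is a feedback loop of transcription. CLOCK, or its relative NPAS2, pairs with BMAL1, listed in the files under its older symbol ARNTL, and activates genes through a DNA element called the E-box. Among these targets are the period (PER) and cryptochrome (CRY) genes, whose proteins return to repress the activators. BHLHE40 and BHLHE41, also called DEC1 and DEC2, are repressors that bind E-boxes directly. In a linked loop, NR1D1 and NR1D2 (REV-ERB alpha and beta) repress ARNTL while the ROR receptors activate it. DBP is an output factor that activates genes through the D-box, an element that NFIL3 represses. Airway epithelium has such a clock, and its repressor genes are also known to answer to hypoxia, glucocorticoids and cAMP in several cell types.

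The proximal promoters of BHLHE40, BHLHE41, PER1 and NR1D2 are shown because these are the members with the canonical E-box near an annotated start, and because they include the 3 members whose interval lay below a ratio of 1 and the member with the highest fold. Sequences are from RefSeq on GRCh38.p14 and run 5′ to 3′ on the gene's strand, from 250 bases before a start site to 50 after it, with the E-box CACGTG in capitals.
BHLHE40, plus strand of chr3:4979187-4979486: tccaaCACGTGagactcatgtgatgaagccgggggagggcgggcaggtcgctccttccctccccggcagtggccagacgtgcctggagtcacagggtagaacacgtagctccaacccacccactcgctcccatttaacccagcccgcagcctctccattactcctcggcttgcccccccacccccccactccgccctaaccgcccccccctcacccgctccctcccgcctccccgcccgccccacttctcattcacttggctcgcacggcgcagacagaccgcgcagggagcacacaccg
BHLHE41, minus strand of chr12:26124988-26125287: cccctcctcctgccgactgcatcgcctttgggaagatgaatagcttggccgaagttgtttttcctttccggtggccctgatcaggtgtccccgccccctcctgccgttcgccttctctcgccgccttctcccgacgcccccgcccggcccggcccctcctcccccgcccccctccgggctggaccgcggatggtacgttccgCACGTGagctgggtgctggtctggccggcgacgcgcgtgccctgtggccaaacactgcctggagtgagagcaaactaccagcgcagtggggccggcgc
PER1, minus strand of chr17:8152355-8152654: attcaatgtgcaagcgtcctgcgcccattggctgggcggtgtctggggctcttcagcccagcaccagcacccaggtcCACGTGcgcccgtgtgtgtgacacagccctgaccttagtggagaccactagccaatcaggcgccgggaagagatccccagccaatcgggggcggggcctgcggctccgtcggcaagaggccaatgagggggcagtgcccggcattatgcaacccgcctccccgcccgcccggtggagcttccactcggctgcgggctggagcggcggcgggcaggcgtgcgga
NR1D2, plus strand of chr3:23945871-23946170, the second of 2 annotated starts: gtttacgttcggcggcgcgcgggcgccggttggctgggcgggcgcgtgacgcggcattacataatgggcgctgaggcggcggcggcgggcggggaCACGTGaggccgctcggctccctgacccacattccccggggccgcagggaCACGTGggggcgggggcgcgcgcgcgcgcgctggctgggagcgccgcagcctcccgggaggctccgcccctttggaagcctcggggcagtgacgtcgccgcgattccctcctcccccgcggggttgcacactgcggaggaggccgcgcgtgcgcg
The E-box began 245 bases before the start site in BHLHE40, 48 bases before it in BHLHE41 and 173 bases before it in PER1. NR1D2 held a pair, which began 155 and 105 bases before its start. Each of these start sites lies inside the gene's deposited coordinates, and so do the E-boxes marked. The letters CACGTG read the same on both strands and contain ACGTG, the core that hypoxia-inducible factors bind, so a match does not tell these motifs apart. CACGTG occurred in 7.26% of 35116 promoter windows of the same length, and in a window of 4 of the 10 members, all of which were matched by symbol. The percentages here and below are shares of windows, whereas a member counted if any of its windows matched. The 10 members had 14 windows.

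The variant CACGTT, searched on both strands, occurred in 5.34% of the windows and in a window of 4 other members, PER2, CRY1, CRY2 and CLOCK. The D-box, searched as TTATGTAA (0.886% of windows) and TTATGCAA (0.846%) on both strands, occurred in PER3 and NR1D2 with the first spelling and in PER1 with the second. The ROR element core TAGGTCA occurred in 1.85% of windows and among the members in CRY2. The cAMP element TGACGTCA, also in 1.85% of windows, was in none of the members' windows. The DBP window held none of these motifs. Promoters with CACGTG belonged to members that were lower in CBS cells (BHLHE40, BHLHE41, PER1) and to 1 that was higher (NR1D2), so the letters did not go with a single direction.

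Depth was alike in both libraries, at 20785957 estimated counts in CBS cells and 20433062 in vector cells. CBS itself matched the labels, at 172 against 14.1 CPM (scaled counts relative to library size). CBSL, a near-identical copy that can share its reads, was at 205 against 17.2 CPM. All 10 basal airway markers were expressed, with KRT5 at 1844 TPM in CBS cells and 2620 TPM in vector cells, and the list summed to 4699 against 7278 TPM (the authors' level scaled for transcript length and depth). Of those 10 markers, 3 were at least 2-fold lower in CBS cells, where 5.28% of all genes were. Counting intervals lay below a ratio of 1 for 8 of them (31.1% of all genes) and held it for TP63. The interval lay above it for EPCAM, which was 1.45-fold higher (1.36 to 1.55). Their part in the clock gene differences was not tested. Among 28 markers of 5 other cell types, 12 had no count in either library. These included FOXJ1 of ciliated cells, COL1A2 of fibroblasts, PTPRC of immune cells and KDR of endothelium. Of the 28, 3 passed the filter on low counts given below. CD14 of immune cells had 225 counts in CBS cells and 203 in vector cells. COL1A1 of fibroblasts had 132 and 270 and was at least 2-fold lower in counts, and CAPS of ciliated cells had 37 and 41. The summed TPM of the 5 lists ran from 0 to 10.0 in CBS cells and from 0.45 to 10.3 in vector cells. In bulk RNA, fewer cells of a type and less RNA per cell cannot be told apart.

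In both libraries the clock genes were dominated by BHLHE40. Its level was 100.7 TPM in CBS cells, against 221 TPM in vector cells, or 58.2% and 70.0% of the summed TPM of the 10 genes. PER1 was second at 30.0 TPM in CBS cells and 51.1 TPM in vector cells, and BHLHE41 came next at 8.95 and 13.2 TPM. The summed TPM was 172.9 in CBS cells and 316.0 in vector cells. Without BHLHE40 it was 72.2 and 94.8 TPM, so most of the gap in the sum lay in that gene.

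PER2 (7.44 TPM in CBS cells, 5.97 in vector cells), CLOCK (7.40 and 7.72 TPM) and CRY1 (6.97 and 7.55 TPM) lay close together in both libraries. NR1D2 was at 5.16 TPM in CBS cells and 2.91 TPM in vector cells, and stood seventh in CBS cells and eighth in vector cells. CRY2 (3.29 and 3.58 TPM), DBP (2.40 and 2.13 TPM) and PER3 (0.55 and 0.64 TPM) closed the order. With 1 library per group the spread of a level is unknown, so the order of neighbours such as PER2, CLOCK and CRY1 is not settled. Ranked instead by scaled counts per kilobase of the longest transcript, BHLHE40 and PER1 stayed first and second and DBP and PER3 last in both libraries, while BHLHE41 was seventh in CBS cells.

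**Figure D1:**
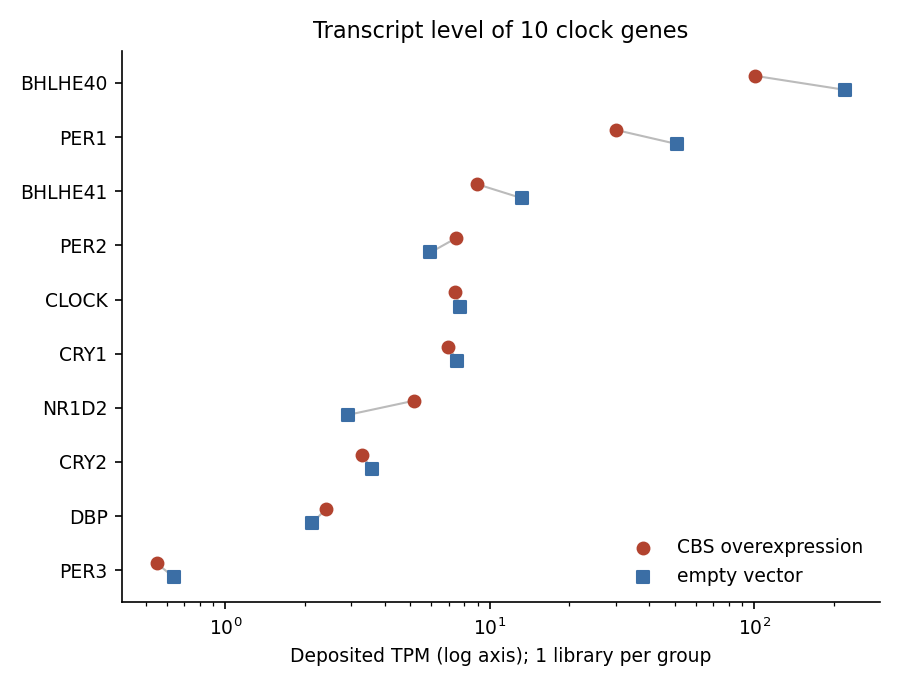
Deposited TPM of the 10 clock genes on a log axis, with 1 point per library, CBS cells as circles above vector cells as squares, and grey lines joining the pair of a gene. BHLHE40 stands highest in both, at 100.7 and 221 TPM, and PER3 lowest, at 0.55 and 0.64 TPM.

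Differences between the libraries are given as folds of CBS over empty vector on scaled counts. The intervals are exact 95% intervals for the ratio of 2 counts and cover counting error only. Log2 folds carry a prior count of 5, added so that low counts do not give extreme folds. A gene was called higher or lower when its interval excluded a ratio of 1 and its fold, with the prior count, was at least 2. All 10 members passed the filter on low counts, which left 13304 genes. Of the members, 2 were called lower, BHLHE40 and BHLHE41, where 5.28% of all genes were called lower, and none was called higher, where 1.41% of all genes were. An interval wholly below a ratio of 1 was found for 3 members (31.1% of all genes) and one wholly above it for 2 (31.6%). The remaining 5 intervals held a ratio of 1. Together, 5 of 10 intervals excluded a ratio of 1, against 62.7% of all genes, so the members as a set did not stand out in how often they differed. Their median log2 fold was 0.052, and the median over all genes was 0.0016. Levels of clock genes vary over the day in many cell types, so the phase of the cultures at harvest and the effect of CBS cannot be told apart here.

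**Figure D2:**
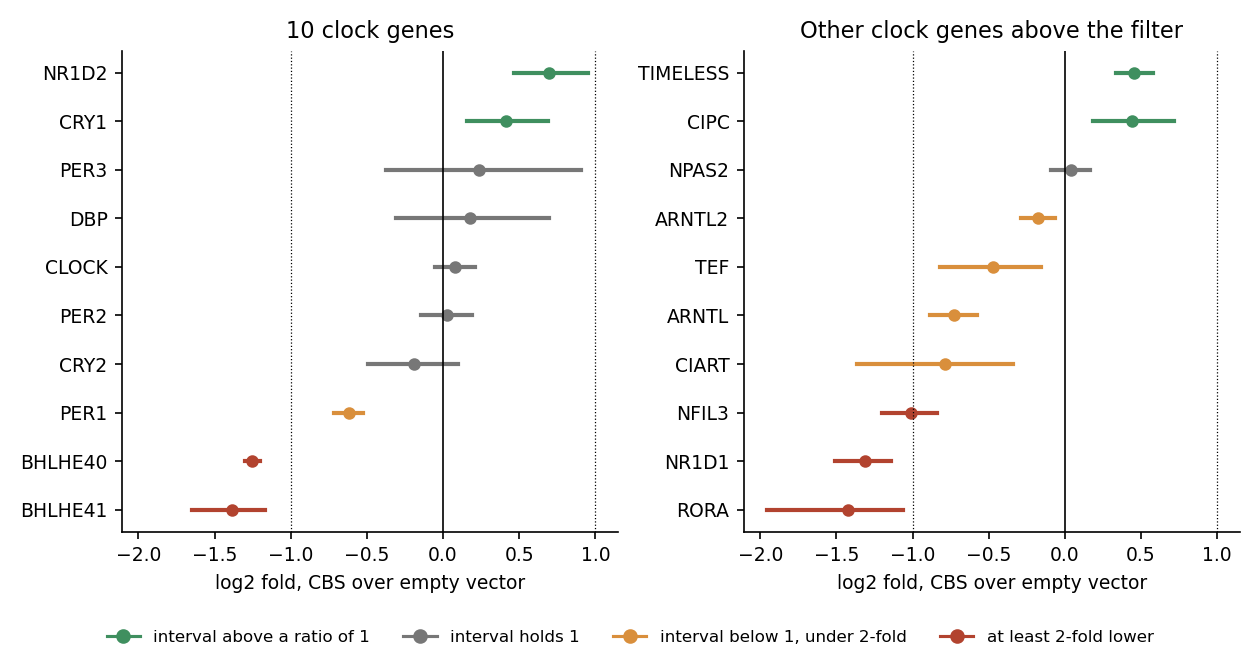
Log2 fold of CBS over empty vector (points) with exact 95% counting intervals (bars) for the 10 clock genes on the left and the other clock genes above the filter, enzymes left out, on the right, with dotted lines at 2-fold. BHLHE40 and BHLHE41 lie beyond the lower dotted line on the left, and NFIL3, NR1D1 and RORA on the right.

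In counts, the E-box repressors BHLHE40 and BHLHE41 had the lowest folds of the 10. BHLHE40 (ENSG00000134107, GRCh38 chromosome 3, 4979116 to 4985323) had 4922 counts in CBS cells and 10960 in vector cells, which is 231 against 550.2 CPM. It was 2.38-fold lower in CBS cells (95% counting interval 2.30 to 2.47), a log2 fold of -1.25. BHLHE41 (ENSG00000123095, chromosome 12, 26120026 to 26125127) had 202 counts in CBS cells and 500 in vector cells, or 9.47 against 25.1 CPM. It was 2.65-fold lower (2.25 to 3.14), a log2 fold of -1.38. The ratio of BHLHE40 to BHLHE41 counts was 24.4 in CBS cells and 21.9 in vector cells, a factor of 1.11 whose interval of 0.94 to 1.32 held 1, so in counts the folds of the DEC genes did not differ beyond counting error. In the deposited TPM, BHLHE40 kept a 2-fold difference (log2 fold of TPM + 1 of -1.13) but BHLHE41 did not, at -0.52, and the factor between them was 0.67. PER1, at -0.75 in that measure, lay below BHLHE41.

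BHLHE40 and BHLHE41 are known targets of hypoxia-inducible factors, and a list of 18 other hypoxia targets was lower alongside them. Its genes had a median log2 fold of -0.95. Of the 18, 8 were called lower (5.28% of all genes) and 17 had intervals under a ratio of 1 (31.1% of all genes). The farthest were CA9, a carbonic anhydrase, at -3.48 and NDRG1, a stress-response protein, at -2.13. The list ran from -3.48 to -0.082. That range is wide enough to hold PER1 (-0.62) and CRY2 (-0.19) as well as the DEC genes, so lying inside it does not set these apart. The part of hypoxia signalling in the DEC difference was not tested.

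Among the period genes, whose proteins form the repressive complex with the cryptochromes, PER1 was lower and PER2 and PER3 had intervals that held a ratio of 1. PER1 (ENSG00000179094, chromosome 17, 8140472 to 8156506) had 1520 counts in CBS cells and 2183 in vector cells, or 71.3 against 109.6 CPM. It was 1.54-fold lower (1.44 to 1.64), a log2 fold of -0.62. PER2 (ENSG00000132326, chromosome 2, 238244038 to 238290102) had 607 against 558 counts, for a log2 fold of 0.023 (-0.14 to 0.19). PER3 (ENSG00000049246, chromosome 1, 7784320 to 7845177) had 50 against 39 counts. Its log2 fold was 0.23 with an interval from -0.37 to 0.90, which leaves room for a level up to 1.87 times as high. The ratio of PER1 to PER2 counts needs no scaling between libraries. It was 2.50 in CBS cells and 3.91 in vector cells, a factor of 0.64 (0.56 to 0.73), or 0.47 in the deposited TPM. The PER1 transcript is rich in G and C (62.7%, where the median gene has 48.1%), and across 13225 genes log2 folds were lower at higher GC content (Spearman correlation -0.28, over genes that are not independent replicates). With the GC and length trend taken out, the log2 fold of PER1 was -0.37 (-0.47 to -0.28) and the factor for PER1 over PER2 was 0.74.

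PER1 is also known as a direct target of the glucocorticoid receptor and of CREB, the factor that answers to cAMP. Of 14 glucocorticoid receptor targets, 12 passed the filter, with 11 intervals below a ratio of 1, 1 above (SGK1, a kinase, at 0.57), 5 genes called lower and a median log2 fold of -0.73. The farthest were the metallothionein MT1X at -1.93, whose close paralogs make its count uncertain, and the phosphatase DUSP1 at -1.66. Of 13 cAMP and CREB targets, 11 passed the filter, with 3 called lower (5.28% of all genes) and a median of -0.32. Their intervals lay below a ratio of 1 for 7 (31.1% of all genes), above it for 1 (31.6%) and held it for 3. FOS, an AP-1 subunit, lay farthest at -2.70, and DUSP1 was on both lists. The part of either signal in the PER1 difference was not tested.

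The cryptochromes, which carry most of the repression of CLOCK and BMAL1, differed from each other in counts. CRY1 (ENSG00000008405, chromosome 12, 106991364 to 107093829) had 290 counts in CBS cells and 202 in vector cells, or 13.6 against 10.1 CPM. It was 1.34-fold higher (1.12 to 1.61), a log2 fold of 0.41. CRY2 (ENSG00000121671, chromosome 11, 45847118 to 45883248) had 186 against 199 counts, for a log2 fold of -0.19 (-0.49 to 0.10). The ratio of CRY1 to CRY2 counts was 1.56 in CBS cells and 1.02 in vector cells, higher by a factor of 1.54 (1.16 to 2.03). With the GC and length trend taken out, that factor shrank to 1.28. In the deposited TPM the ratio of CRY1 to CRY2 was 2.12 in CBS cells and 2.11 in vector cells. CRY1 turned to a log2 fold of -0.10 in TPM, so its direction depended on the measure.

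CLOCK (ENSG00000134852, chromosome 4, 55427903 to 55547138), the DNA-binding activator, had 1010 counts in CBS cells and 892 in vector cells, or 47.4 against 44.8 CPM. Its log2 fold was 0.081 (-0.050 to 0.21), and the interval leaves room for a level from 0.97 to 1.16 times that in vector cells. NPAS2, which can take its place, was at 0.038 (-0.089 to 0.17) with 1050 against 955 counts. Their partner ARNTL had 573 counts in CBS cells and 890 in vector cells and a log2 fold of -0.73 (-0.89 to -0.58), and its relative ARNTL2 had 1324 against 1398 counts, for a log2 fold of -0.18 (-0.29 to -0.067). The ratio of CLOCK to ARNTL counts was 1.76 in CBS cells and 1.002 in vector cells, higher by a factor of 1.76 (1.53 to 2.02). The same factor was 1.25 in the deposited TPM, where ARNTL was at -0.37, ARNTL2 at 0.16 and NPAS2 at 0.39. The level of CLOCK thus differed little in counts and in TPM, where it was at -0.054, while ARNTL was lower in both.

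NR1D2, a heme-binding nuclear receptor that represses ARNTL, was the highest member. The gene (ENSG00000174738, chromosome 3, 23945260 to 23980618) had 391 counts in CBS cells and 224 in vector cells, or 18.3 against 11.2 CPM. It was 1.63-fold higher (1.38 to 1.93), a log2 fold of 0.69. Its close relative NR1D1 lay on the other side, with 359 counts in CBS cells and 840 in vector cells, 2.50-fold lower (2.21 to 2.84) and a log2 fold of -1.31. The ratio of NR1D2 to NR1D1 counts was 1.09 in CBS cells and 0.27 in vector cells. That is a factor of 4.08 (3.31 to 5.04), the farthest from 1 of the 10 pairs of relatives or partners compared, and 4.09 in the deposited TPM. With the GC and length trend taken out it was 3.30. The factor relates single libraries, and the pair was singled out after the values were seen. Among the pairs not given elsewhere, CLOCK over NPAS2 had a factor of 1.03 (0.91 to 1.17) in counts and 0.73 in the deposited TPM, ARNTL over ARNTL2 one of 0.68 (0.60 to 0.78) and DBP over TEF one of 1.60 (1.05 to 2.44). PER1 over PER3 had a factor of 0.54 (0.35 to 0.85). It was 0.68 in the deposited TPM and 0.68 with the GC and length trend taken out. PER2 over PER3 had a factor of 0.85 (0.53 to 1.34), which in the deposited TPM was 1.45.

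RORA, a receptor that opposes them in that loop, had 59 counts in CBS cells and 156 in vector cells and was called lower at -1.42 (-1.96 to -1.06). RORB, of the same family, had 1 count in CBS cells and 2 in vector cells, too few to compare. NR1D1, NR1D2 and RORA thus had no common direction.

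DBP (ENSG00000105516, chromosome 19, 48630030 to 48637438), a clock output factor of the PAR bZIP family, had 77 counts in CBS cells and 63 in vector cells, or 3.61 against 3.16 CPM. Its log2 fold was 0.18, and the interval from -0.31 to 0.70 held a ratio of 1. TEF, of the same family, was at -0.47 (-0.82 to -0.16) with 136 against 178 counts. HLF, the last of that family, lay below the filter with 17 against 16 counts. NFIL3, which competes at the D-box as a repressor, had 379 counts in CBS cells and 718 in vector cells and was called lower at -1.01 (-1.20 to -0.84). That call, at a 2.03-fold difference (1.79 to 2.30), ended under 4 alternatives: NFIL3 was at -0.94 with plain library totals, -0.85 in the deposited TPM, -0.98 at a prior count of 20 and -0.98 with no filter on low counts.

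Set beside the members, 26 of 30 other clock genes passed the filter. Intervals lay above a ratio of 1 for 9 (31.6% of all genes), below it for 11 (31.1% of all genes) and held it for 6. The genes called lower among the 26 were NR1D1, RORA and NFIL3, where 5.28% of all genes were. None was called higher, where 1.41% of all genes were. The calls of NR1D1 and RORA held under each of 8 alternatives of scaling, measure, prior count, filter and GC trend, and that of NFIL3 under 4. The median log2 fold of the 26 genes was -0.0097. Without the modifying enzymes it was -0.60 over 10 genes, with 7 intervals below a ratio of 1 and 2 above. Among the repressor partners, TIMELESS was at 0.45 and CIPC, which binds CLOCK, at 0.44, while CIART, an E-box repressor, was at -0.79 with 53 against 89 counts. The list of 17 kinases, phosphatases, ubiquitin ligase parts and ubiquitin-removing enzymes that act on PER and CRY proteins had 16 genes above the filter. Their median was 0.067 and none was called in either direction. Within them the log2 folds ran from -0.59 to 0.64.

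**Figure D3:**
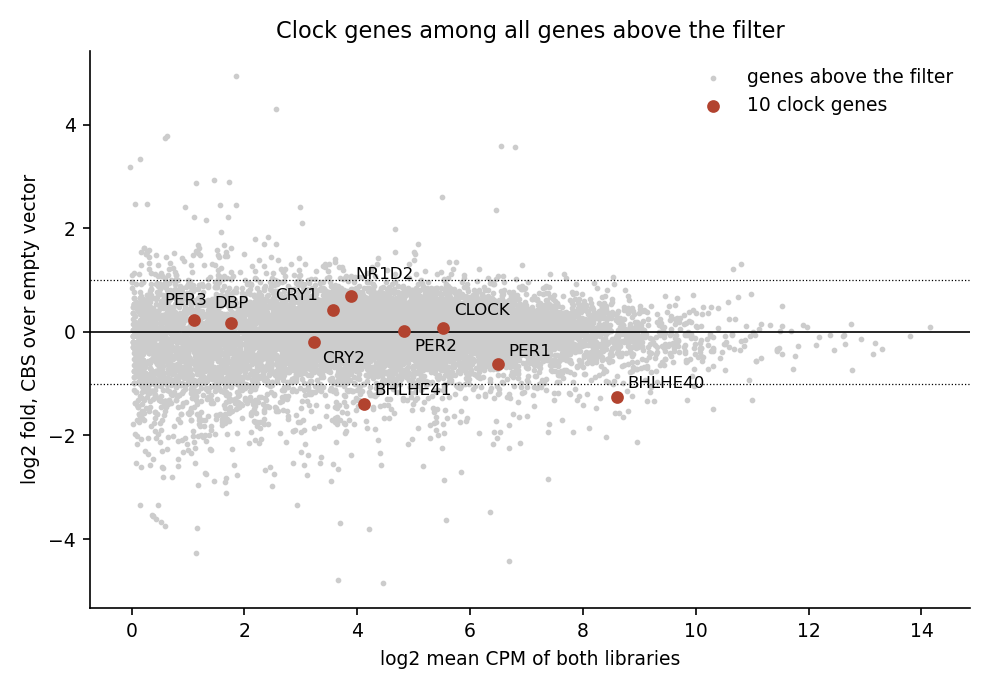
Log2 fold of CBS over empty vector against the log2 mean CPM of both libraries for the 13304 genes above the filter (grey) and the 10 clock genes (red, named), with dotted lines at 2-fold. BHLHE40 is the most abundant member and lies below the lower line at -1.25, while the 5 members whose intervals held a ratio of 1 lie between -0.19 and 0.23.

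Counts and TPM differed for some members. A gene's counts per TPM depend on the transcript lengths the authors' estimate assigned to it. Over all genes above the filter, counts per TPM in CBS cells were 0.99 times those in vector cells at the median, with percentiles 5 and 95 at 0.83 and 1.20. BHLHE40 was at 0.99 and NR1D2 at 0.98. BHLHE41 was at 0.60, with 22.6 counts per TPM in CBS cells and 37.8 in vector cells. CRY1 was at 1.56, with 41.6 against 26.8, and PER3 at 1.49, with 90.9 against 60.9. BHLHE41, CRY1 and PER3 thus lay outside the central range of all genes, and for them counts and TPM are not interchangeable. Levels of single transcripts were not analysed here.

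Of the 10 members, 9 overlap another gene in the deposited coordinates, with 14 such genes in all and 3 of them above the filter, each on the opposite strand in GENCODE 29. NKIRAS1 overlaps NR1D2 over 1332 bases and was at 0.36 with 230 counts in CBS cells and 166 in vector cells. SPHK2 overlaps DBP over 688 bases and was at 0.22 with 405 against 324 counts. TMEM165 overlaps CLOCK over 25495 bases and was at -0.22 with 1266 against 1381 counts. Outside the members, THRA overlaps NR1D1 on the opposite strand over 1081 bases and was at -0.097 with 371 counts in each library. Strandedness is not given in the sources used here, so reads in the shared stretches may have been counted for either gene. The genes that overlap BHLHE40, BHLHE41 and PER1 had at most 4 counts in CBS cells and 12 in vector cells.

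BHLHE40, BHLHE41, PER1 and CRY2 kept a negative log2 fold, and NR1D2 and DBP a positive one, under each alternative that gave a value for them. NR1D2 ran from 0.58 to 0.77 and BHLHE40 from -1.28 to -1.13. PER2, PER3, CRY1 and CLOCK had both signs among the alternatives.

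**Figure D4:**
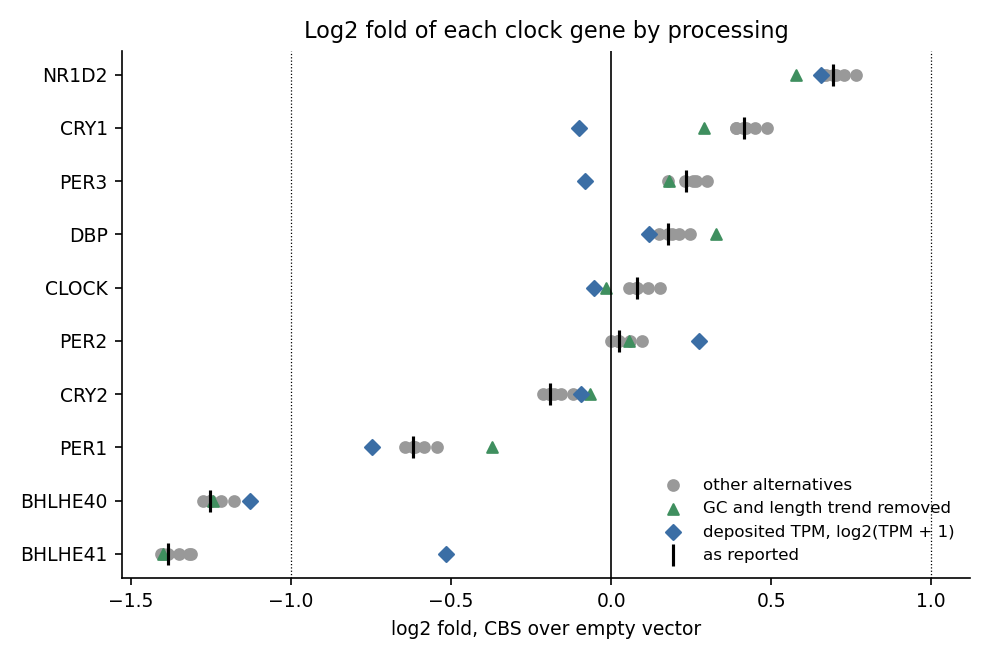
Log2 fold of CBS over empty vector for each of the 10 clock genes as reported (black bars), from the deposited TPM (diamonds), with the GC and length trend taken out (triangles) and under the other alternatives (grey circles), with dotted lines at 2-fold. BHLHE41 moves to -0.52 and CRY1 to -0.10 in TPM, while BHLHE40 and NR1D2 stay close to -1.25 and 0.69.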

How the data were processed

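RNA sequencing was deposited for 1 library per group, grouped by the genotype in the labels. The authors deposited expected counts, which are model estimates (fractional for 15.5% of genes in CBS cells and 15.7% in vector cells), and TPM. Trimmomatic 0.39, STAR 2.6.1d, RSEM 1.3.2 and GRCh38 appear, without roles, in the submitters' processing notes. The annotation release and strandedness are not given in the sources used here.

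Expected counts were rounded. Genes with at least 10 counts in either library and 1 CPM or more on average were kept. TMM factors (1.03 for CBS, 0.97 for the empty vector) came from edgeR 4.0.16 in R 4.3.3, and DESeq2 1.42.0 gave size factors as an alternative, with no model fitted by either. Folds had a prior count of 5 and exact Clopper-Pearson intervals made without it. Pair ratios had exact conditional odds ratio intervals. They were added after the data were seen. PCR reads are not independent molecules, so the intervals cover counting error only. TPM was used as log2(TPM + 1). GC content and length are those of the longest GENCODE 29 transcript (99.4% of kept genes), and their trend was removed by lowess (span 0.3, statsmodels 0.14.6), the intervals being moved by the same amount. The fold and interval code was tested on simulated data.

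Members, other clock genes, hypoxia, glucocorticoid and cAMP targets and cell type markers were chosen with earlier results of these data known. The genes named were all members, the other activator, receptor and bZIP clock genes, the other clock genes called with at least 100 counts, the genes overlapping a member, and from each context list the ones farthest from a ratio of 1. Of the genes this rule takes, 1 is not reported here. TIMELESS, CIPC, CIART, SGK1, EPCAM, CD14, COL1A1, CAPS and THRA were named after their values were seen. No gene of like pattern was sought, since 2 libraries give 1 difference.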

Additional observations from a re-analysis of the deposited data

How the results depend on the processing

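No paired analysis was possible because each group held 1 library, and for the same reason no replicate could be left out. Of 198 recomputed values, 171 stayed within the main interval (for medians, within the median half-width of the intervals, and for counts of genes, within 1.5 times the main count) and 1 reversed. The 171 include counts of intervals above or below a ratio of 1 where only the prior count changed. Those counts could not move, since the intervals are made without the prior count. In the deposited TPM, called on the fold alone, CRY1 turned to -0.10, BHLHE40 was at -1.13, BHLHE41 at -0.52, PER1 at -0.75, PER2 at 0.28 and CLOCK at -0.054, 1 member was at least 2-fold lower, the median of the other clock genes was 0.11, and 377 genes were at least 2-fold lower, against 703 in counts. The median log2 fold over all genes was 0.090 in that measure. With plain library totals BHLHE40 was at -1.18, and with the GC and length trend taken out PER1 was at -0.37. At a prior count of 20, 121 genes were at least 2-fold higher, against 188. With no filter on low counts 466 were higher and 1221 lower, and with a minimum of 100 counts in 1 library 112 and 460, the number of genes tested being 25316 and 11040. PER3 and DBP have no value under that minimum. At a threshold of 1.5-fold, 1 member was higher and 3 were lower. Of the other clock genes, 1 was higher and 6 were lower, with 934 genes higher and 1712 lower in all. At 4-fold, 0 members and 0 other clock genes were lower, with 23 genes higher and 105 lower in all. By counts per kilobase, 4 members in CBS cells and 3 in vector cells took another rank than in TPM. The call of NFIL3 was lost with plain library totals, in TPM, at a prior count of 20 and with no filter, which left 2 other clock genes lower in each. Except where an alternative changes the number of genes tested or the threshold, the cause was not tested. Depth limits PER3 and DBP most, with at most 77 counts in a library.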
